A study of Mus musculus with 2 samples.

Results

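The transcripts described here are those of the MHC class II presentation pathway and its main costimulators, measured in 2 cultures of mouse bone marrow cells. The list named 10 genes: the class II chain genes H2-Aa, H2-Ab1 and H2-Eb1, the peptide exchange genes H2-DMa and H2-DMb1, the invariant chain gene Cd74, the protease gene Ctss, the regulator gene Ciita and the costimulator genes Cd80 and Cd86. Every probe set whose platform annotation names exactly 1 gene, and that gene among the 10, was taken. This gave 21 probe sets for 9 genes, out of 34945 such probe sets for 18193 genes on the array. H2-DMb1 has no probe set that names it alone; 2 probe sets carry it together with another gene and were left out.

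The wildtype array holds RNA of unsorted marrow cells from wildtype mice, and the Cpdm array holds RNA of unsorted marrow cells from Cpdm mice. Cpdm is the chronic proliferative dermatitis mutation, which removes functional SHARPIN, a subunit of the enzyme that builds linear ubiquitin chains. Both cultures were kept for 10 days with ascorbic acid (50 µg/ml) and β-glycerophosphate (10 mM), a medium used to drive stromal cells towards osteoblasts. The sources used here do not give the age, the strain or how many mice went into a culture. There was 1 array per genotype, so no difference below has a replicate error, a test or a p-value, and a difference describes these 2 arrays.

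Class II molecules carry peptides from the endosome to the surface of macrophages, dendritic cells and B cells, where CD4 T cells read them. The α and β chains assemble with the invariant chain, which blocks the groove until proteases such as cathepsin S trim it, and the H2-DM dimer then exchanges the last fragment for a peptide. CIITA is the coactivator that switches these genes on, through factors bound to the X and Y boxes that class II promoters share. CD80 and CD86 give the costimulatory signal through CD28 on the T cell. In marrow, class II is known chiefly from cells of the macrophage, dendritic and B lineages, and mesenchymal cells can show it after exposure to interferon gamma.

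The upstream sequences of H2-Aa and H2-Eb1 are shown because the signals of these chain genes were more than 2-fold higher with Cpdm and both hold letters of the class II boxes. Each runs 5′ to 3′ along the gene's strand and ends at the base before the annotated start (RefSeq, GRCm38.p6). The H2-Aa stretch is chr17:34287824-34288073 on the minus strand, and the H2-Eb1 stretch is chr17:34305617-34305866 on the plus strand. Capitals mark the letters CTNGCAAC, a core of the X box, and then CTGATTGG, the Y box.
H2-Aa: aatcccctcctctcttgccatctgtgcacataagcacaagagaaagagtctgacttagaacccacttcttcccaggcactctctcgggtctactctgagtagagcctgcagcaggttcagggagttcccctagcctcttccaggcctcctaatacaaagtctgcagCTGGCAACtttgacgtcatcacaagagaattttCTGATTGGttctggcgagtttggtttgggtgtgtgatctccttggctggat
H2-Eb1: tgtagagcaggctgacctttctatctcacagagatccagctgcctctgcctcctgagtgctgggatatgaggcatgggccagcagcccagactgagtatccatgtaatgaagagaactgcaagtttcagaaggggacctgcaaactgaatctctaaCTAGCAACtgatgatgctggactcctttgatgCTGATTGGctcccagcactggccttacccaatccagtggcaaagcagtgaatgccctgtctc

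The X box core begins 84 bases before the start of H2-Aa and 94 bases before that of H2-Eb1. The Y box follows after 25 bases in H2-Aa and 24 bases in H2-Eb1, so the boxes do not overlap. The letters were chosen with these promoters in view and were searched on both strands of the 250 bases before each start. The X box core was found in 2.84% of 32851 annotated promoters, the Y box in 3.83%, and both together in 51 promoters (0.155%). Of the members, 6 had an entry among these promoters, with 7 entries in all. Those of Cd80, Ctss, H2-DMa and H2-DMb1 did not hold these letters in this window. A match describes the letters and does not show that a factor binds there.

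Values are MAS5 signals, the array software's summary of a probe set on a linear scale, in arbitrary units. A signal below the 40th percentile of its array was set to that level, called the floor, which was 18.5 for Cpdm and 18.7 for wildtype. Each gene was read from its brightest probe set, by mean log2 signal over the arrays, and counted as measured where that probe set reached the floor in the Cpdm array, the wildtype array or both. The 18 spike-in probe sets, made of foreign transcripts added in equal amounts, averaged 0.01 ± 0.11 on the log2 ratio scale (SD, n = 18 probe sets). Pairs of probe sets of the same gene, over 5250 genes, put the robust SD of a log2 ratio at 0.32, and at 0.36 where the brighter of the pair lay between 50 and 200. Both yardsticks speak of the array step alone and say nothing of the spread among mice or cultures. Sharpin read 162 for Cpdm and 197 for wildtype, which does not check the labels because the mutation need not remove the transcript. Xist was higher in the Cpdm array (log2 ratio 2.17) and the Y-linked Eif2s3y, Kdm5d and Uty were lower (-1.63, -1.62 and -1.92). The 18S ribosomal RNA controls, 3 probe sets, also had lower signals with Cpdm, at log2 ratios from -3.75 to -2.37. With 1 array per genotype, these differences cannot be told apart from the genotype, and their part in the results was not tested.

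Transcripts of the class II chains, the invariant chain, H2-DMa and both costimulators were higher in the Cpdm culture. The very bright signal of the protease was near equal, and that of the regulator lay too near the floor to compare. All 9 genes were measured, each above the floor in both arrays by its representative probe set. At least 2-fold higher were 6 of them, H2-Aa, Cd80, H2-DMa, Cd86, Cd74 and H2-Eb1, against a background of 5.84% of 14055 measured genes. None was at least 2-fold lower, against a background of 5.98%, and 3 lay between. These shares are also the background for the counts of the other gene lists below. The median log2 ratio of the members was 1.12, or 2.17-fold, and the median of all measured genes was 0.03. Cd74, H2-Eb1 and Cd86 lay above 2-fold by less than the robust SD of 0.32 of a probe set. H2-DMa lay above it by less than the 0.36 found for signals between 50 and 200. H2-Ab1, at 1.85-fold, lay just below that line. In bulk RNA, more cells of a type and more RNA per cell cannot be told apart.

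The probe sets one by one showed the same direction for most genes. Of the 21 probe sets, 13 were above the floor in both arrays, 2 in the Cpdm array only and 6 in neither. Among the 13, 12 had a higher signal in Cpdm and 7 of these were at least 2-fold higher. Counted with the 2 whose wildtype signal lay at the floor, 8 of 15 were at least 2-fold higher and none was 2-fold lower. Of all measured probe sets naming 1 gene, 5.3% were at least 2-fold higher and 6.37% lower. Those 2 entered through the Cpdm array alone and could therefore only be higher there. The remaining probe set of the 13, for Ciita, had the lower signal in Cpdm.

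**Figure D1:**
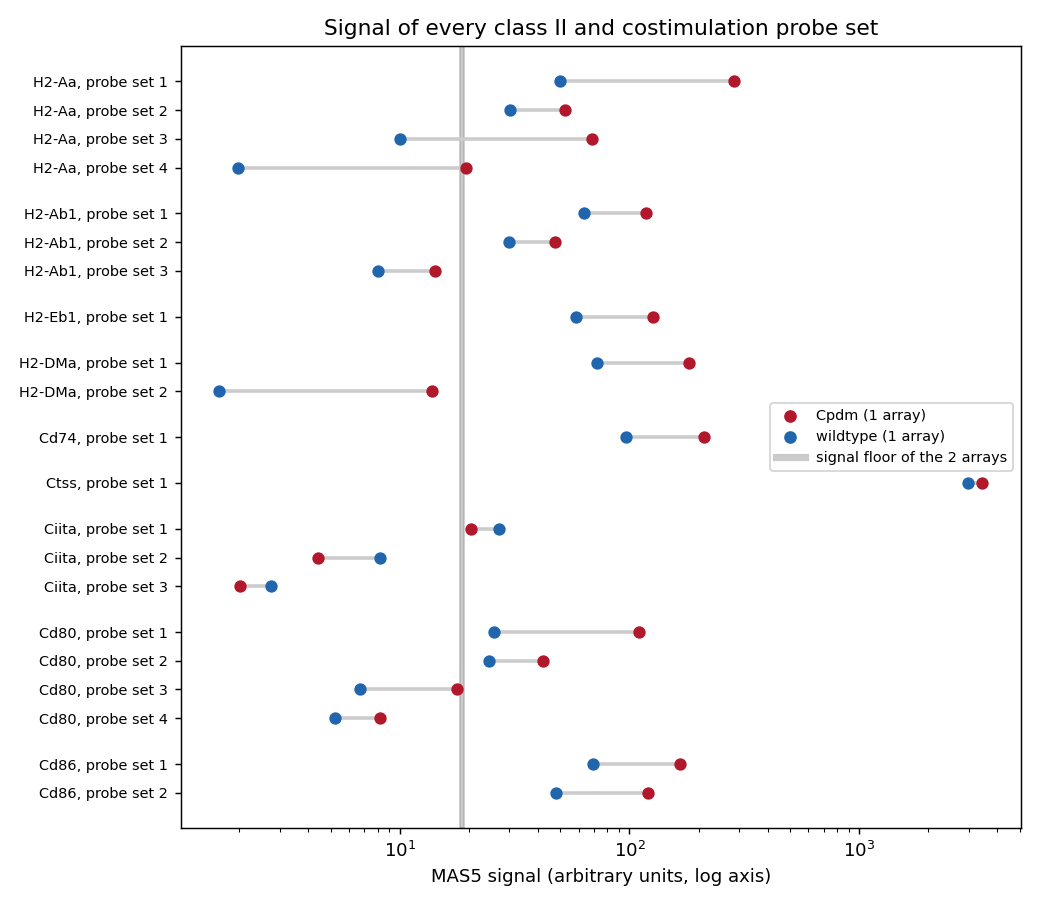
MAS5 signal (log axis) of each of the 21 probe sets in the Cpdm array (red) and the wildtype array (blue), joined by a line, numbered within a gene by mean signal; the grey band spans the 18.5 and 18.7 floors. Red lies to the right of blue for 18 probe sets, and to the left for the 3 Ciita probe sets.

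Among the class II chains, H2-Aa, the α chain of the I-A molecule, had the largest difference of the list. Its brightest probe set read 284 with Cpdm and 50.0 with wildtype, or 5.68-fold higher. That ratio ranks 40 from the top among the 14055 measured genes. A second probe set read 52.6 against 30.1, or 1.75-fold, so the size differed by 1.70 log2 units between probe sets that each were above the floor in both arrays. Another read 68.9 against 9.97, which is at least 3.68-fold against the floor. The dimmest read 19.3 against 1.97, where the Cpdm signal itself lay near the floor. All 4 probe sets were thus higher in Cpdm, by sizes that do not agree. All 4 are of the _x_at or _s_at kind, which can bind related transcripts, so what they count is less certain.

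H2-Ab1 encodes the β chain that pairs with the product of H2-Aa. Its brightest probe set, also of the _s_at kind, read 118 in Cpdm and 63.4 in wildtype, or 1.85-fold higher, and the next read 47.4 against 30.0, or 1.58-fold. These probe sets differed by only 0.23 log2 units, and neither reached 2-fold. The last H2-Ab1 probe set lay below the floor in both arrays, at 14.2 and 8.01. The chains of the I-A molecule therefore had the same direction and different sizes by their brightest probe sets, while 1.75-fold for the second H2-Aa probe set lay close to the H2-Ab1 values.

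H2-Eb1 encodes the β chain of the other class II molecule, I-E. Its only probe set read 126 in Cpdm and 58.4 in wildtype, or 2.16-fold higher. The partner α chain gene, H2-Ea, is silent in some mouse strains, and it lay below the floor in both arrays at 14.2 and 11.2. H2-Eb2, a further β chain gene, read 69.1 against 41.3, or 1.67-fold.

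Among the genes that load the molecule, Cd74 and H2-DMa were at least 2-fold higher and the other measured chains were not by their brightest probe sets. Cd74, the invariant chain that guides class II to the endosome, read 211 in Cpdm and 97.0 in wildtype by its only probe set, or 2.17-fold higher. H2-DMa, the α chain of the peptide exchange factor, read 181 against 72.2, or 2.50-fold higher. A second H2-DMa probe set lay below the floor in both arrays, at 13.8 and 1.64. H2-DMb2, which encodes a β chain of the same factor, read 66.3 against 50.6, or 1.31-fold. By its other probe sets it read 37.5 against 18.7 and 22.8 against 11.4, with wildtype under the floor each time. Of the chains of H2-DO, which restrains H2-DM, H2-Oa was near the floor at 22.7 against 22.0 and H2-Ob was below it in both arrays at 12.9 and 6.26.

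Ctss, the gene of the protease that trims the invariant chain, did not share this difference. It read 3436 in Cpdm and 2984 in wildtype, a ratio of 1.15-fold that is smaller than the robust SD of a probe set. Its signal stood above 99.8% of probe sets with Cpdm and 99.6% with wildtype, a range where array signals can be compressed. Of 12 measured genes of endosomal proteolysis and class II turnover, 2 were at least 2-fold higher and none at least 2-fold lower (median log2 ratio 0.05.) The legumain gene Lgmn read 2741 against 2479, and the brightest probe set of the cathepsin gene Ctsb 3712 against 3681. The 3 dimmest Ctsb probe sets were higher with Cpdm, at 1955 against 1235, 1501 against 959 and 60.9 against 35.9.

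The members of that list that were at least 2-fold higher were Ifi30 and Marchf1. Ifi30 encodes the thiol reductase GILT, which opens disulfide bonds of antigens in the endosome, and read 1408 in Cpdm and 664 in wildtype, or 2.12-fold higher. Marchf1 encodes a ubiquitin ligase that removes class II and CD86 from the surface of resting presenting cells. It read 120 against 26.2, or 4.57-fold higher, and 97.7 against 26.0, or 3.76-fold higher, by another probe set. The remaining Marchf1 probe set went the other way at 22.5 against 29.4, close to the floor.

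Ciita, the coactivator of class II genes, was near or below the floor in both cultures. Its brightest probe set read 20.4 in Cpdm and 27.0 in wildtype, a log2 ratio of -0.40. The robust SD of a log2 ratio was 0.46 where the brighter of a pair of probe sets lay under 50. The other Ciita probe sets read 4.42 against 8.19 and 2.02 against 2.75, below the floor in both. All 3 probe sets thus read lower in Cpdm, at levels where MAS5 signals are noisy, so these arrays hold no measure of how far Ciita differed. The class II genes it acts on were higher in the same array.

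The other factors of class II transcription were mixed. Of 11 measured genes in that list, 3 were at least 2-fold higher and none at least 2-fold lower (median log2 ratio 0.25.) Those past 2-fold were Irf8, Spi1 and Irf1. Irf8 read 539 in Cpdm and 164 in wildtype, or 3.29-fold higher, with 3.06-fold by its other probe set. Spi1, the gene of the myeloid factor PU.1, read 410 against 194, or 2.11-fold, and Irf1 read 505 against 245, or 2.06-fold. Irf4 read 25.1 against 30.1, and 32.3 against 5.06, with wildtype under the floor, by its other probe set. The genes of the RFX complex, which binds the X box, did not pass 2-fold: Rfx5 had a log2 ratio of 0.30, Rfxank -0.06 and Rfxap -0.79, with -0.20 by another Rfxap probe set. Nfya, a subunit of the factor that binds the Y box, had a log2 ratio of 0.59 by its brightest probe set and values of -0.07 and -0.52 by others.

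Interferon gamma is the main inducer of Ciita outside B and dendritic cells. Of 4 measured genes in its signalling list, none passed 2-fold in either direction, and the median log2 ratio was -0.13. Ifng lay below the floor in both arrays, at 0.755 and 0.342, and so did Socs1, a feedback inhibitor, at 3.79 and 4.90. The receptor genes Ifngr1 and Ifngr2 had log2 ratios of 0.48 and 0.61, with -0.12 by another Ifngr2 probe set. The kinase genes Jak1 and Jak2 had log2 ratios of -0.88 and -0.74, with -0.23 by another Jak1 and -1.06 by another Jak2 probe set.

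Both costimulator genes were higher in the Cpdm culture, Cd86 more evenly than Cd80. Cd86 read 166 in Cpdm and 69.6 in wildtype, or 2.39-fold higher, and its other probe set read 121 against 47.9, or 2.52-fold higher. The pair differed by 0.08 log2 units, the closest agreement among the 4 members with at least 2 probe sets over the floor in both arrays. Cd80 read 110 against 25.8, or 4.28-fold higher, and 42.1 against 24.4, or 1.73-fold higher, by a second probe set. Its remaining probe sets lay below the floor in both arrays, at 17.7 against 6.72 and 8.17 against 5.20. All 4 Cd80 probe sets thus read higher in Cpdm, and the wildtype signals of the upper pair lay near the floor, so the size of the difference is uncertain.

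**Figure D2:**
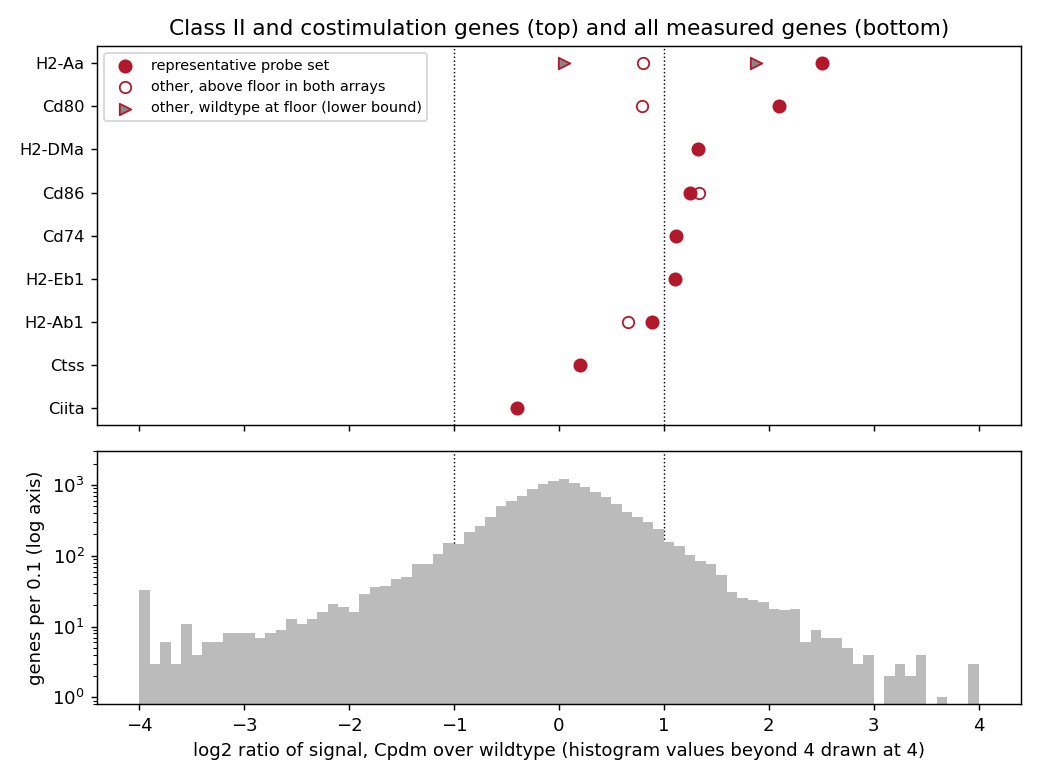
Top, log2 ratio of signal (Cpdm over wildtype) of each of the 9 measured genes by its representative probe set (filled circles), other probe sets that reached the floor in both arrays (open circles) and lower bounds where wildtype lay at the floor (triangles); bottom, number of genes per bin of log2 ratio for all 14055 measured genes (log axis). Dotted lines mark 2-fold; 6 filled circles lie to the right of it, and H2-Aa and Cd80 have open circles on the inner side of it.

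Other surface molecules that help or restrain T cell contact differed gene by gene. Of 12 measured costimulators and coinhibitors outside the members, 3 were at least 2-fold higher and none at least 2-fold lower (median log2 ratio 0.43.) Icam1, the adhesion ligand of LFA-1, read 468 in Cpdm and 103 in wildtype, or 4.55-fold higher, and Cd48, a ligand of 2B4 and CD2, read 1346 against 502, or 2.68-fold higher. Icosl, the ligand of ICOS, read 107 against 44.0, or 2.43-fold higher, but 20.8 against 28.2, in the opposite direction, by another probe set near the floor. Cd40, which receives help from T cells, was near equal at 66.3 against 62.5 by its brightest probe set. Its other probe sets went both ways, at 65.1 against 51.7 and 46.9 against 63.6. The PD-1 ligand genes Cd274 and Pdcd1lg2 had log2 ratios of 0.46 and -0.24.

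Markers of the cells that carry class II were compared in the same arrays. Of 12 measured macrophage and monocyte markers, 5 were at least 2-fold higher and none at least 2-fold lower (median log2 ratio 0.82). The shares over all measured genes were 5.84% and 5.98%. The count of 5 ranged from 3 to 7 over all settings. The summed signal of the 12 markers was 16831 against 12583. The defining markers were above the floor in both arrays: Cd68 read 3089 against 2545, Adgre1 2407 against 1228 and Csf1r 3199 against 2331. The other Csf1r probe sets were 2.38-fold and 2.18-fold higher. Lyz2 was lower with Cpdm, at 2657 against 3507, and Itgam was near equal, at 77.5 against 71.0. The 5 markers past 2-fold were Marco, at least 8.64-fold, Cx3cr1, 5.53-fold, Fcgr1, 3.39-fold, Ccr2, 2.50-fold, and Mertk, 2.14-fold. Marco lay under the floor in wildtype, so it entered through the Cpdm array alone and could only be higher there. The wildtype signal of Ccr2, at 21.2, lay near the floor. Its other probe sets had wildtype under the floor, with lower bounds from 1.05-fold to 3.07-fold. The other Cx3cr1 probe set also had wildtype under the floor, with a lower bound of 1.46-fold. The median of the members was 0.30 log2 units above that of the macrophage list, a difference with no test. The members were also compared with that list's median by their brightest probe sets. H2-Aa lay 1.68 log2 units above it, Cd80 1.27, H2-DMa 0.50, Cd86 0.43, Cd74 0.30, H2-Eb1 0.29 and H2-Ab1 0.07. The same difference was -0.62 for Ctss and -1.22 for Ciita. Cd74, H2-Eb1 and H2-Ab1 lay within the robust SD of 0.32. By their second probe sets, H2-Aa and Cd80 had log2 ratios of 0.81 and 0.79, just below the median of 0.82. The remaining H2-Aa probe sets, with wildtype under the floor, had lower bounds of 1.88 and 0.05. The H2-Aa and Cd80 values thus depended on the probe set. The macrophage median itself ranged from 0.54 to 0.96 across settings. The part of macrophage content in the class II difference was not tested.

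Dendritic cell markers went both ways. Of 10 measured markers, 1 was at least 2-fold higher and 1 at least 2-fold lower (median log2 ratio 0.39). The summed signal of all 12 with a probe set, measured or not, was 2034 against 1425. Clec10a, a lectin of macrophages and dendritic cells, was 2.64-fold higher at 479 against 181. Zbtb46, a factor of classical dendritic cells, was 2.22-fold lower at 31.5 against 69.8, with a fold of 2.37 in the same direction by another probe set. The last measured Zbtb46 probe set read 21.2 against 29.7, and the gene was no longer 2-fold lower under 4 other settings. Itgax read 277 against 218 and Flt3 45.9 against 56.2, while Ccr7 and Ccl22 lay below the floor in both arrays.

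Most B cell markers were near or below the floor. Of 6 measured B cell markers, none passed 2-fold in either direction, with a median log2 ratio of -0.03. The summed signal of all 7 with a probe set was 1529 against 864. The B cell receptor gene Cd79a lay below the floor in both arrays at 10.4 and 14.2, Ms4a1 read 28.1 against 37.3, and Pax5 21.9 against 30.6. Cd22 and Blnk, which other blood cells can share, were the brightest of the list and carried its sum, at 498 against 251 and 934 against 502. The other Cd22 probe set was 2.32-fold higher. Among T cell markers, 3 were measured and none passed 2-fold. The summed signal of all 5 with a probe set was 184 against 196. Cd3e read 25.7 against 30.4, Cd8a 94.7 against 123 and Thy1, which stromal cells share, 49.1 against 26.6. Members of both lists thus went both ways, and the part of B and T cells in the class II values was not tested.

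Class I presentation, which most cells carry, was set beside class II. Of 9 measured class I genes, 2 were at least 2-fold higher and none at least 2-fold lower. Over all measured genes the shares were 5.84% and 5.98%. The median log2 ratio was 0.51, which is 0.61 below that of the class II members. By their brightest probe sets the chain genes B2m, H2-K1 and H2-D1 read 3845 against 3993, 2795 against 2344 and 2486 against 2141. Signals this bright can be compressed. Other measured probe sets had log2 ratios from -0.21 to 0.57 for H2-K1 and from -0.47 to 1.20 for H2-D1. Tapbp, the peptide-loading chaperone tapasin, read 1387 against 613, or 2.26-fold higher, but 1.06-fold by its other probe set. Psmb8, an immunoproteasome subunit, was 2.09-fold higher. Nlrc5, the class I counterpart of CIITA, read 115 against 63.0, or 1.83-fold higher. With 1 array per genotype, whether class II differed more than class I could not be tested. Osteoblast markers went the other way in these arrays, with 5 of 6 measured at least 2-fold lower in Cpdm and a summed signal of 4828 against 13288. These 5 were Alpl, Dmp1, Sp7, Col1a1 and Phex. Of them, Phex alone lay under the floor with Cpdm and could only be lower there. The remaining marker, Ibsp, was 1.31-fold lower by its brightest probe set and 6.20-fold lower by its other. The part of these markers in the class II values, which are shares of a scaled array, was not tested.

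**Figure D3:**
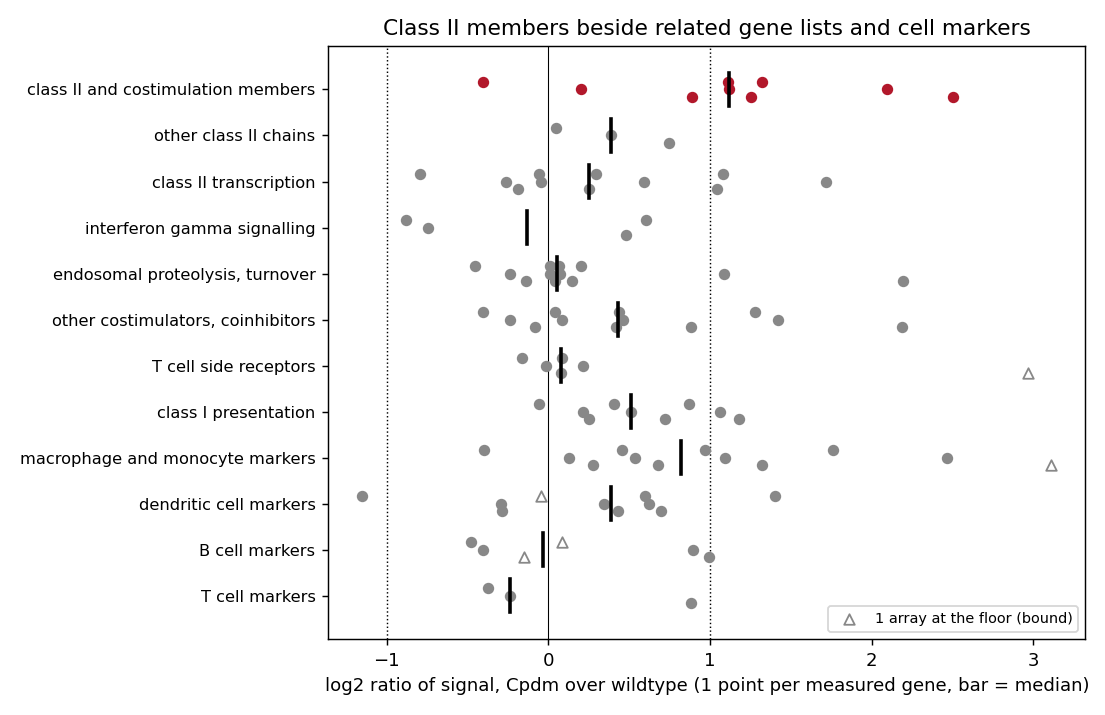
Log2 ratio of signal (Cpdm over wildtype) of every measured gene in the class II and costimulation list (red), 7 related gene lists and 4 cell marker lists (grey), 1 point per gene by its representative probe set; bars are medians, dotted lines mark 2-fold, and open triangles are genes with 1 array at the floor. The members have a median of 1.12, the macrophage markers 0.82, and the B and T cell markers -0.03 and -0.24.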

How the data were processed

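The authors deposited 1 table of linear signal intensity values for 45101 probe sets, with 1 column per array. Per the submitters' processing notes, GCOS 1.4 and MAS5 were used; scaling target, detection calls and background settings: not given in the sources used here. Per the labels' protocols, cRNA was made from 5 µg of total RNA per culture. Trimmed by 2% at each end, the mean signal was 100 in each array. The platform annotation lists 1 gene for 34945 of 45037 non-control probe sets, several genes for 932 and no entry for 9160. Entrez identifiers matched a current gene for 34741 and changed no symbol.

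Signals were used as deposited. Floored signals gave log2 ratios of Cpdm over wildtype, with a fixed rule of size (at least 2-fold) and "at least" where 1 array lay at the floor. No test was possible with 1 array per genotype, and the number of arrays limits the precision. The calculation was tested on simulated data. Python 3.11.15, numpy 2.4.6, pandas 2.3.3 and matplotlib 3.10.9 were used.

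The members, the 12 other gene lists and the settings were chosen with earlier results of these data known. Named are all members with every probe set; from each other list, the genes at least 2-fold different or, with none, the 3 with the largest difference; and fixed defining markers. Any further gene was named after its values were seen. Alternatives were other scalings, floors, probe set choices and fold thresholds. The table gives no genome build, so gene coordinates are not given, and promoters are those of RefSeq on GRCm38.p6.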

Additional observations from a re-analysis of the deposited data

How the results depend on the processing

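The count of 6 members at least 2-fold higher was 6 under equal medians, quantile normalization, spike-in scaling, floors at the 20th and 60th percentiles, no floor and the mean over probe sets. It was 5 with a pseudocount of 16 (3.51% of all genes passed), 5 without _s_at and _x_at probe sets (5.91%; H2-Aa had no value), 7 at 1.5-fold (15.7%), 4 when each gene took its probe set nearest to no difference (4.05%), and 2 at 3-fold (1.54%). In the settings that left it at 6, between 4.81% and 9.57% passed. The median log2 ratio of 1.12 was 0.79 with the probe set nearest to no difference, and moved by less than the robust SD of 0.32 under the other settings. Cd80 then had a log2 ratio of 0.79, and H2-Aa a lower bound of 0.05, since its wildtype signal was raised to the floor. For single members and the other lists, 455 values stayed within 1.5 times (counts) or the robust SD (log2 ratios) and 41 did not. Zbtb46 was no longer 2-fold lower with the floor at the 60th percentile, the pseudocount, the mean over probe sets or its probe set nearest to no difference. None of the members was at least 2-fold lower under any of these settings. No paired analysis was possible because each genotype has 1 array.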

Other observations

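On the T cell side of these contacts, none of 6 measured receptor genes was at least 2-fold lower in the Cpdm array, against 5.98% of all measured genes. At least 2-fold higher was 1 gene, against 5.84%. That gene was Cd4, the coreceptor for class II, which read 147 in Cpdm and 18.4 in wildtype, at least 7.83-fold higher. Its wildtype signal lay under the floor, so it entered through the Cpdm array alone and could only be higher there. Another Cd4 probe set lay below the floor in both arrays, at 1.70 and 1.19. Cd28, the receptor of CD80 and CD86, read 112 against 106, and its rival Ctla4 lay below the floor in both arrays. The T cell marker genes Cd3d and Cd3g also lay below the floor in both arrays. Which cells carried the Cd4 signal was not tested.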
